A study of Mus musculus with 12 samples.

Results

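The contractile apparatus of smooth muscle cells and myofibroblasts was followed in adult mouse left ventricles in which the cardiac transcription factor Nkx2-5 had been deleted during trabecular development. The 8 genes were chosen by name: Acta2, Tagln, Cnn1, Myh11, Smtn, Mylk, Lmod1 and Myocd. On the array, 10 of 55681 probes carried the name of 1 of these 8 genes, out of 34844 gene names in all. Of these, 7 genes, with 9 probes, lay above background often enough to be tested, among 24593 probes of 18021 genes. Lmod1 was the exception and is described with its own values below.

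Left ventricular RNA of 12 mice aged 6 months was measured, 4 mice and 4 arrays per group. The ventricular wall was taken with the apex and without the septum. Mutant mice carried a floxed Nkx2-5 allele and Cx40-creERT2, a Cre recombinase that is driven by the Cx40 gene and acts after tamoxifen. Tamoxifen reached the embryos through their mothers at E10.5 and E11.5 in the group labelled Nkx2-5Δtrab, called TrbE10 here, and at E13.5 and E14.5 in the group labelled Nkx2-5Δcomp, called TrbE14. The labels describe the controls as not injected, whereas the study's methods describe them as littermates with floxed Nkx2-5 and 2 wild-type Cx40 alleles, and thus without Cre. The deletion is limited to cells in which Cx40 was active at the time of tamoxifen and to their descendants. The Nkx2-5 gene stays intact in the other cells of the ventricle.

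Nkx2-5 served as the check of the labels. Its log2 signal was 11.95, 12.23, 11.93 and 11.88 in the control hearts, 11.27, 11.67, 11.21 and 11.22 in TrbE10 hearts and 11.12, 11.56, 11.32 and 11.62 in TrbE14 hearts. All 8 mutant values lay below the 4 control values. In TrbE10 hearts the signal fell by 0.65 (log2 scale, SE 0.14, adjusted p = 0.0471 by limma), and the TrbE14 difference was -0.59 (SE 0.14, adjusted p = 0.107). Whether the probe lies in the deleted part of the gene was not tested. Each array had between 22888 and 26151 probes that stood well above background, and 0 saturated spots. Control and TrbE14 arrays shared 1 slide and can be compared within it. The controls lay in row 1 of that slide and TrbE14 in row 2, so row and group cannot be told apart. The TrbE10 arrays had a second slide to themselves, and there slide and genotype cannot be told apart. Y-linked signal marked 1 control heart, 2 TrbE10 hearts and 3 TrbE14 hearts.

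Smooth muscle contraction starts when calcium and calmodulin activate myosin light chain kinase, the product of Mylk, which phosphorylates the light chains of smooth muscle myosin. Acta2 encodes smooth muscle alpha-actin, Myh11 the smooth muscle myosin heavy chain, and Tagln (transgelin), Cnn1 (calponin) and Smtn (smoothelin) proteins that bind actin filaments. Lmod1 encodes a leiomodin, which nucleates actin filaments. Many of these genes are controlled by serum response factor (SRF), which binds a sequence called the CArG box, and by its coactivator myocardin, the product of Myocd. In the heart, the contractile genes mark the smooth muscle of coronary vessels, Acta2 is also the classical marker of myofibroblasts, and Myocd is expressed in cardiomyocytes as well.

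Because the CArG box is the element these genes are known for, the bases before the start of each gene were searched for it. RefSeq promoter windows of build GRCm38.p6 were at hand for 5 of the 8 genes (Acta2, Cnn1, Smtn, Mylk and Lmod1). In the 250 bases before the start, 0 of these 5 genes held a CArG box with a core of A and T bases alone, which 1.47% of 32851 windows of all genes held. A CArG-like site, with 1 G or C in the core, was found in 7.24% of all windows and in 1 of the 5 genes, Acta2, which held a pair of them. The 150 bases before the Acta2 start (GRCm38.p6, chr19:34255374-34255523, minus strand) and those before the Cnn1 start (chr9:22099103-22099252, plus strand), in which no match was found, read as follows, 5′ to 3′, with the CArG-like sites in capitals.
Acta2: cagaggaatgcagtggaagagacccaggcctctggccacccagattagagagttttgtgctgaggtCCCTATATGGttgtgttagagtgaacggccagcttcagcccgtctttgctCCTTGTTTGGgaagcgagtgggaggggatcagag
Cnn1: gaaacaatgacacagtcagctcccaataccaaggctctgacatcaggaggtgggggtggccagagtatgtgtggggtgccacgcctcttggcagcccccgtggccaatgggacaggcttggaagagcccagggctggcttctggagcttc

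The Acta2 sites lay from -84 to -75 and from -34 to -25, counted from the start of the gene. The letters CATTCC, the core of the MCAT element bound by TEAD factors, were present on either strand in 4 of the 5 genes (Acta2, Smtn, Mylk and Lmod1) and in 12.6% of all windows. The letters TNAAGTG, the core of sites bound by Nkx2-5, were present in 0 of the 5 genes and in 10.1% of all windows. No further overlap between these motifs was examined, and a match in these letters is a description of the sequence.

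Of the 7 measured genes, none passed the test in any of the 3 comparisons, with 0 calls by limma at an adjusted p under 0.05 and 0 calls by 2-class SAM. The calls made up 1.91% of the 18021 genes in TrbE10 against control, 0.666% in TrbE14 against control and 0% in TrbE10 against TrbE14. The counts here take the brightest probe of each gene. At an unadjusted p under 0.05, 0 of the 7 genes stood out in TrbE10 against control, where 16.7% of all genes did. A second, dimmer Mylk probe, described below, had an unadjusted p of 0.0141 by limma there and lay wholly below the controls. In TrbE14 against control 3 of the 7 were higher, beside 6.51% of all genes, and in TrbE10 against TrbE14 4 were lower, beside 3.04% of all genes. The arrays of a mutant did not overlap those of the controls for 0 of the 7 genes in either mutant, whereas 4.97% of all genes lay wholly above and 5.48% wholly below the controls in TrbE10 hearts, and 4.66% and 5.31% in TrbE14 hearts. The median log2 change of the 7 genes was -0.06 in TrbE10 and 0.63 in TrbE14 hearts against control, beside medians of -0.02 and -0.03 over all genes. In whole ventricle, more cells of a type and more RNA per cell cannot be told apart.

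**Figure D1:**
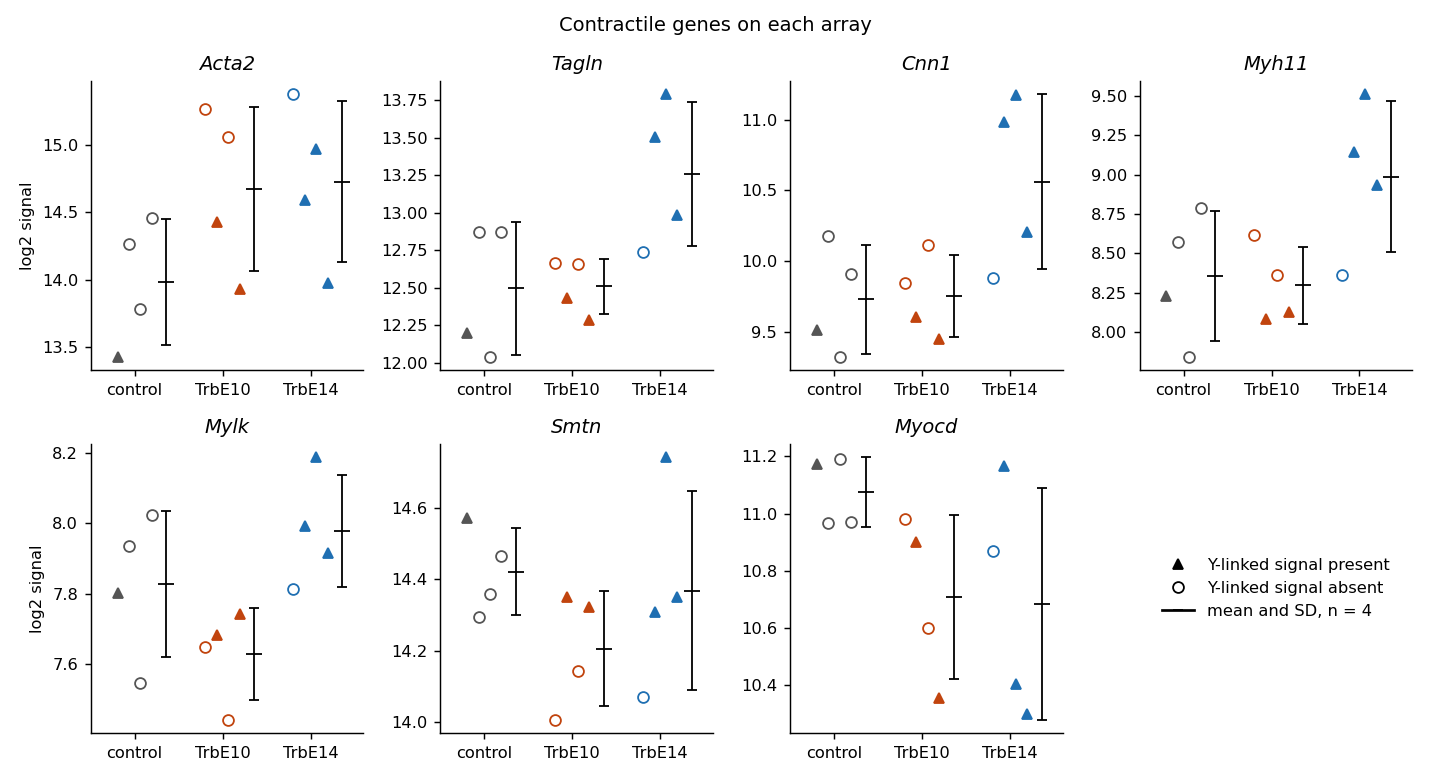
log2 signal (y axis, a separate scale for each gene) of the 7 measured contractile genes on each of the 12 arrays, by group (x axis). Filled triangles are hearts with Y-linked signal, open circles hearts without it, and the bar and whiskers give the mean and SD of 4 arrays. Acta2 lies higher on average in both mutants (means of 14.67 and 14.73 against 13.98), whereas Tagln, Cnn1 and Myh11 lie near the controls in TrbE10 and higher on average in TrbE14.

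Acta2 had a higher mean in both mutants, by similar amounts, whereas the other measured contractile genes had TrbE10 means near or below the controls. Its log2 signal was 13.43, 14.27, 13.78 and 14.46 in control, 15.26, 14.43, 15.06 and 13.93 in TrbE10 and 15.38, 14.59, 14.97 and 13.98 in TrbE14 hearts. The groups overlapped, since the TrbE10 hearts at 14.43 and 13.93 and the TrbE14 heart at 13.98 fell within the range of the controls. The difference from control was 0.69 (SE 0.36, 95% interval from -0.10 to 1.48, 1.61-fold, adjusted p = 0.374) in TrbE10 and 0.75 (SE 0.36, 95% interval from -0.04 to 1.54, 1.68-fold, adjusted p = 0.391) in TrbE14 hearts. Exact permutation tests over 8 arrays gave two-sided p-values of 0.143 and 0.114. The mutants differed from each other by -0.06 (95% interval from -0.85 to 0.73), an interval that still holds differences as large as those from control. The Acta2 probe (A_52_P420504, mm9, chr19:34316060-34316119) was spotted 10 times on each array, and the SD between these spots was at most 0.07.

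In each group Acta2 was lower on average in hearts with Y-linked signal than in hearts without it, a difference that was not called after adjustment. Among hearts without it, Acta2 ranged from 13.78 to 14.46 in 3 controls, stood at 15.06 and 15.26 in 2 TrbE10 hearts and at 15.38 in 1 TrbE14 heart. Among hearts with it, Acta2 was 13.43 in 1 control, 13.93 and 14.43 in 2 TrbE10 hearts and ranged from 13.98 to 14.97 in 3 TrbE14 hearts. Within each of these 2 sets, every mutant heart lay above every control heart. The set with the signal holds only 1 control heart, and the share of all genes that separate in this way was not counted. With Y-linked signal as a covariate, Acta2 differed by -0.87 in hearts with the signal (SE 0.20, unadjusted p = 0.00120, adjusted p = 0.228), and the differences from control became 0.91 (adjusted p = 0.0683) for TrbE10 and 1.18 (adjusted p = 0.0639) for TrbE14, still short of the threshold. The same covariate had coefficients of -0.03 for Tagln, 0.00 for Cnn1 and 0.04 for Myh11. For Smtn it was 0.28 (unadjusted p = 0.0129, adjusted p = 0.393).

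Tagln, Cnn1 and Myh11, which mark differentiated smooth muscle cells, had higher means in TrbE14 hearts and near-zero differences in TrbE10 hearts. Tagln had log2 signals of 12.20, 12.87, 12.04 and 12.87 in control, 12.66, 12.43, 12.66 and 12.29 in TrbE10 and 12.74, 13.51, 13.79 and 12.99 in TrbE14 hearts. Cnn1 had 9.51, 10.18, 9.32 and 9.91 in control, 9.85, 9.61, 10.12 and 9.45 in TrbE10 and 9.88, 10.98, 11.18 and 10.20 in TrbE14 hearts. For Myh11 the values were 8.23, 8.58, 7.84 and 8.79 in control, 8.62, 8.08, 8.36 and 8.12 in TrbE10 and 8.37, 9.14, 9.51 and 8.93 in TrbE14 hearts. In each of the 3 genes, TrbE14 replicates 2 and 3 were the highest of all 12 hearts and TrbE14 replicate 1 lay among the controls.

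Against control, the TrbE14 difference was 0.76 for Tagln (SE 0.25, 1.69-fold, unadjusted p = 0.0122, adjusted p = 0.247), 0.83 for Cnn1 (SE 0.29, 1.78-fold, unadjusted p = 0.0161, adjusted p = 0.261) and 0.63 for Myh11 (SE 0.26, 1.55-fold, unadjusted p = 0.0309, adjusted p = 0.322). The exact permutation p was 0.114 for each. In TrbE10 hearts the differences were 0.02 for Tagln (95% interval from -0.54 to 0.57), 0.02 for Cnn1 (-0.62 to 0.67) and -0.06 for Myh11 (-0.62 to 0.50). Without TrbE14 replicate 3, the number of the 7 genes with an unadjusted p under 0.05 in TrbE14 against control went from 3 to 1, which was Tagln, and the Myh11 difference from 0.63 to 0.46.

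The 2 mutants, early and late deletion, were also set against each other directly, although their arrays were on different slides. All 4 TrbE10 hearts lay below all 4 TrbE14 hearts in Tagln (-0.75, SE 0.25, unadjusted p = 0.0135 by limma). The same held for Mylk with its brighter probe (-0.35, SE 0.12, unadjusted p = 0.0154 by limma). For each of these the exact permutation p was 0.0286, the smallest that 4 against 4 arrays can give. Cnn1 differed by -0.81 (SE 0.29, unadjusted p = 0.0185) and Myh11 by -0.69 (SE 0.26, unadjusted p = 0.0200), each with 1 or more hearts overlapping and an exact permutation p of 0.0571. After adjustment over all probes none of the 4 passed (adjusted p from 0.735 to 0.786 by limma), and no gene on the array did. Lower TrbE10 values without overlap were found in 1.71% of all genes and in 2 of these 7. The TrbE10 arrays had a slide of their own, so slide and time of deletion cannot be told apart in these differences.

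**Figure D2:**
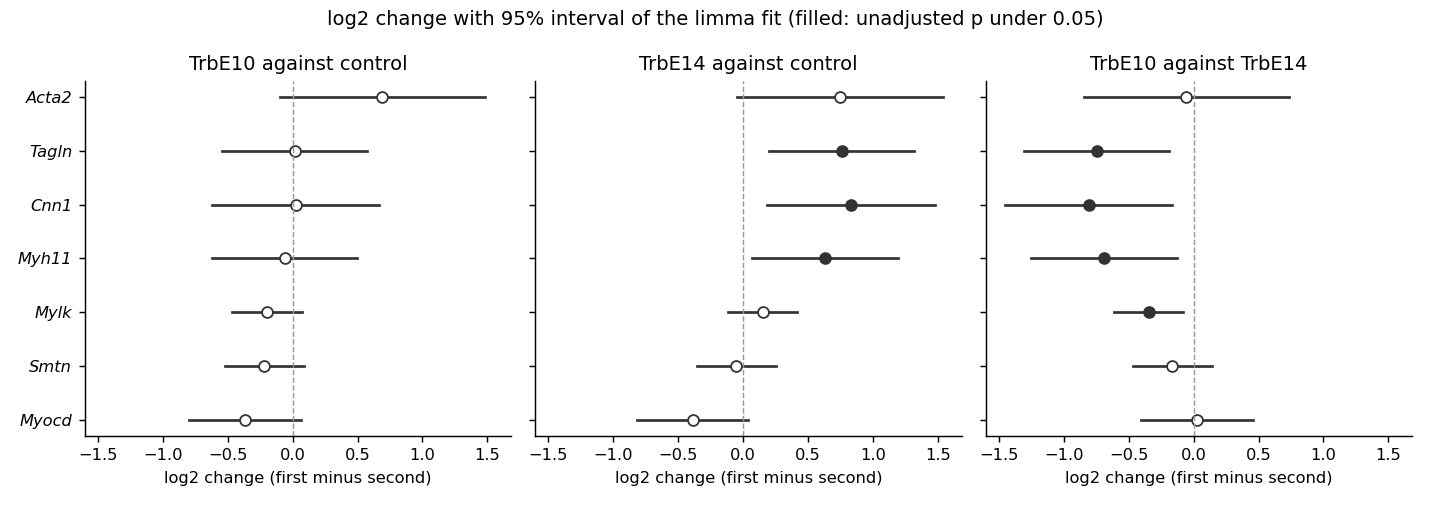
log2 change (x axis, first group minus second) of the 7 measured contractile genes (y axis) in the 3 comparisons, with the 95% interval of the limma fit. Filled points have an unadjusted p under 0.05; all adjusted p-values are above 0.05. Tagln, Cnn1 and Myh11 sit between 0.63 and 0.83 in TrbE14 and between -0.06 and 0.02 in TrbE10 against control.

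Mylk, the kinase gene, had log2 signals of 7.80, 7.94, 7.55 and 8.02 in control, 7.65, 7.68, 7.44 and 7.74 in TrbE10 and 7.81, 7.99, 8.19 and 7.92 in TrbE14 hearts with its brighter probe (mm9, chr16:35001266-35001325). Its difference from control was -0.20 in TrbE10 (SE 0.12, adjusted p = 0.453) and 0.15 in TrbE14 hearts (SE 0.12, adjusted p = 0.595). A second Mylk probe, named after another transcript (mm9, chr16:34953958-34954017), differed by -0.60 in TrbE10 hearts (SE 0.21, unadjusted p = 0.0141, adjusted p = 0.182), with the 4 TrbE10 values between 4.27 and 4.94 and the 4 control values between 5.06 and 5.50. That probe was well above background on 2 of 4 TrbE10 arrays and on all control and TrbE14 arrays, so the size of the TrbE10 difference rests partly on values at background. In TrbE14 hearts it differed from control by 0.03. Between TrbE10 and TrbE14 it differed by -0.62 (SE 0.21, unadjusted p = 0.0111, adjusted p = 0.700 by limma). There the hearts of the 2 mutants overlapped, with an exact permutation p of 0.0857.

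Smtn varied little between the groups. With its brighter probe (mm9, chr11:3417530-3417589) the log2 signal lay between 14.29 and 14.57 in control hearts, 14.01 and 14.35 in TrbE10 hearts, and 14.07 and 14.74 in TrbE14 hearts. The differences from control were -0.22 (SE 0.14, adjusted p = 0.474) and -0.05 (SE 0.14, adjusted p = 0.881), and those of the second probe were -0.10 and -0.13. The 95% intervals of the brighter probe reached from -0.52 to 0.09 and from -0.36 to 0.25.

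Myocd, the coactivator, had lower means in both mutants, opposite in sign to Acta2. Its log2 signal was 11.17, 10.97, 11.19 and 10.97 in control, 10.98, 10.90, 10.60 and 10.36 in TrbE10 and 10.87, 11.16, 10.41 and 10.30 in TrbE14 hearts. The controls were close together (SD 0.12) and the mutants more spread (SD 0.29 and 0.40). The differences were -0.36 in TrbE10 (SE 0.20, adjusted p = 0.386, exact permutation p = 0.0857) and -0.39 in TrbE14 hearts (SE 0.20, adjusted p = 0.403, exact permutation p = 0.114). Lmod1 was not well above background on any of the 12 arrays (0 of 4 in each group), with log2 signals from 2.47 to 2.97, and no fold is given for it.

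Across the 12 hearts the contractile genes fell into a tight set and several looser genes. Tagln correlated with Cnn1 at r = 0.98 and with Myh11 at r = 0.96, and Cnn1 with Myh11 at r = 0.93. On deviations from the group means, which leave out the differences between groups, these were 0.95, 0.93 and 0.86. Mylk correlated with the 3 genes at 0.67 to 0.80. Acta2 correlated with Tagln at 0.48 (0.42 within groups) and with Myh11 at 0.37, and Myocd with Tagln at -0.28. These are descriptions over 12 arrays, which share normalization and groups. The 3 unadjusted p-values of Tagln, Cnn1 and Myh11 are therefore not independent of each other.

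**Figure D3:**
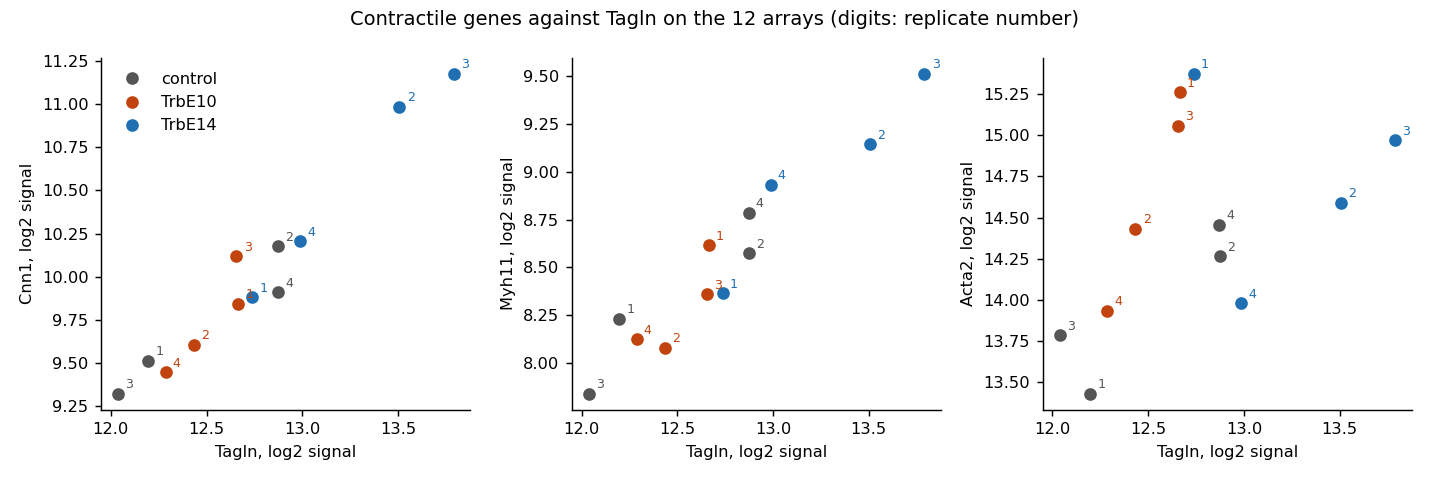
log2 signal of Cnn1, Myh11 and Acta2 (y axes) against that of Tagln (x axis) in the 12 hearts, coloured by group and numbered by replicate. Cnn1 and Myh11 follow Tagln along 1 line through all groups (r = 0.98 and 0.96), while Acta2 does not (r = 0.48), with TrbE10 replicates 1 and 3 and TrbE14 replicate 1 high in Acta2 at a middle Tagln signal.

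The genes most like the contractile genes were sought among all other named genes on the array, by Pearson's r with the mean standardized signal of the 7 genes over 12 arrays. The first 5 were Tpm2 (r = 0.93), which encodes a tropomyosin, Actg2 (r = 0.92), the smooth muscle gamma-actin, Chad (r = 0.90), a cartilage matrix protein, Flna (r = 0.90), the actin cross-linker filamin A, and Csrp2 (r = 0.85), a LIM protein of smooth muscle. On deviations from the group means the first 5 were Tpm2, Flna, Chad, Actg2 and Otud7b, with r from 0.81 to 0.90. Actg2 had log2 signals of 7.36, 8.02, 7.10 and 7.50 in control, 7.42, 7.32, 6.85 and 7.16 in TrbE10 and 7.34, 8.68, 9.13 and 7.83 in TrbE14 hearts. TrbE14 replicates 2 and 3 were the highest. Genes picked by their likeness on these 12 arrays share this pattern by choice, so it gives no separate support. Its direct difference between TrbE10 and TrbE14 was -1.06 (SE 0.35, unadjusted p = 0.0107, adjusted p = 0.695). Tpm2 and Flna differed from control by 0.44 and 0.29 in TrbE14 (adjusted p = 0.337 and 0.326) and by -0.01 and 0.04 in TrbE10 hearts, where both changed sign with other settings. Acta2 by itself was most like other genes, which were looked up after its values had been seen: Dpysl3 (r = 0.91), Tubg2 (0.90), the TGF-beta ligand gene Tgfb3 (0.89), the transcription factor gene Zeb2 (0.89) and Adamtsl5 (0.88).

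**Figure D4:**
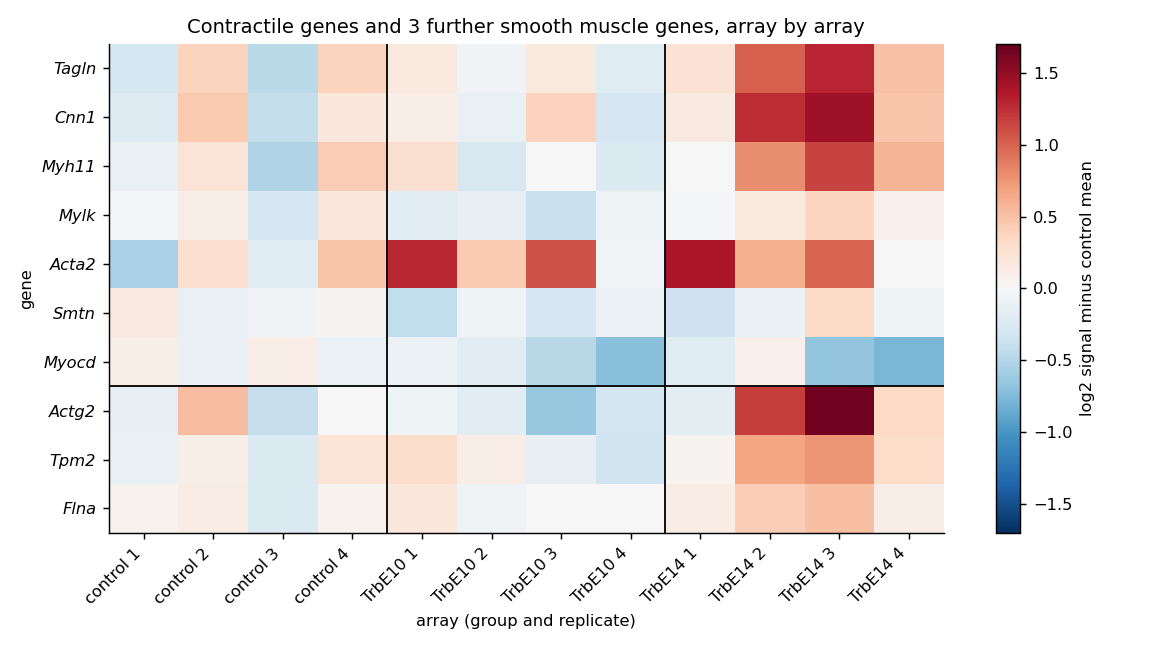
log2 signal minus the control mean (colour scale) of the 7 measured contractile genes and of Actg2, Tpm2 and Flna (rows) on each of the 12 arrays (columns, by group and replicate). TrbE14 replicates 2 and 3 are the reddest columns for Tagln, Cnn1, Myh11, Actg2, Tpm2 and Flna, while the reddest Acta2 cells are TrbE10 replicates 1 and 3 and TrbE14 replicate 1. Actg2, Tpm2 and Flna were picked for their likeness to the contractile genes on these same arrays.

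The other contractile genes of smooth muscle were described with a list of 19, all measured. The list was chosen with earlier results of these data known and holds Actg2, Tpm2 and Flna, named above for their likeness. Its counts therefore give no separate support, and the part of cardiomyocytes in these signals was not tested. In TrbE14 against control, 18 of the 19 had a higher mean, beside 44.3% of all genes, with a median log2 change of 0.25. At an unadjusted p under 0.05, 7 were higher, beside the 6.51% of all genes, but 0 were called. In TrbE10 against control, 12 had a higher mean, beside 45.4% of all genes, the median was 0.09, 1 was higher at an unadjusted p under 0.05, beside 7.82% of all genes, and 0 were called. Cald1, the gene of caldesmon, which holds back actomyosin, had log2 signals of 7.05, 6.94, 6.63 and 6.62 in control and of 7.23, 7.48, 7.19 and 7.36 in TrbE14 hearts. These 2 groups did not overlap (0.50, SE 0.12, adjusted p = 0.0984), and the TrbE10 difference was 0.25 (adjusted p = 0.316). With normexp background correction, another way of removing background, the Cald1 differences shrank to 0.27 and 0.15, in the same order. Csrp1, a LIM protein gene, differed by 0.28 and 0.43 (adjusted p = 0.368 and 0.245), and Des, the gene of the intermediate filament desmin, which cardiomyocytes also express, by 0.32 and 0.25 (adjusted p = 0.333 and 0.489).

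Genes that regulate contraction were described with a list of 15, of which 14 were measured. Of these, 11 had a higher mean in TrbE10 and 12 in TrbE14 hearts (medians of 0.10 and 0.13), and 0 were called in either. Kcnmb1, the smooth muscle subunit of the large-conductance calcium-activated potassium channel, had log2 signals of 4.48, 4.82, 4.76 and 5.20 in control, 5.44, 5.81, 5.69 and 4.94 in TrbE10 and 5.41, 5.78, 5.81 and 5.72 in TrbE14 hearts. All TrbE14 values exceeded all control values (0.87, SE 0.20, adjusted p = 0.0896), whereas 1 TrbE10 value overlapped the controls (0.65, adjusted p = 0.133). For this dim probe the differences were 0.23 and 0.24 with normexp, so their size depended on the background correction. Prkg1, the cGMP-dependent kinase that mediates relaxation by nitric oxide, differed by 0.74 in TrbE14 (SE 0.17, adjusted p = 0.0958) and 0.34 in TrbE10 hearts (adjusted p = 0.361). Ppp1r14a, whose product inhibits myosin phosphatase, differed by 0.46 (adjusted p = 0.201) and 0.12 (adjusted p = 0.725), in the same order.

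The SRF and myocardin axis was described with 13 genes, of which 12 were measured, and 0 were called in either comparison. The medians were -0.04 in TrbE10 and -0.01 in TrbE14 hearts. Srf itself differed by -0.19 (adjusted p = 0.509) and -0.16 (adjusted p = 0.580). The myocardin-related coactivator genes Mrtfa and Mrtfb lay between -0.15 and 0.22. Klf4, a repressor of contractile genes in cultured smooth muscle cells, was picked out after its values were seen, with differences of -0.68 (SE 0.22, adjusted p = 0.161) and -0.59 (SE 0.22, adjusted p = 0.283).

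Cells that carry contractile genes were followed by their own markers. Some genes here and in the lists below are named because their mutant arrays did not overlap the controls. Among all genes, 4.97% lay wholly above the controls in TrbE10 and 4.66% in TrbE14 hearts, and 5.48% and 5.31% wholly below. Of 10 mural cell and pericyte genes, 5 had a higher mean in TrbE10 and 6 in TrbE14 hearts, with medians of 0.07 and 0.11. Pdgfrb, the receptor that recruits mural cells, rose in TrbE10 hearts by 0.37 (SE 0.08, adjusted p = 0.0450) and differed by 0.41 in TrbE14 hearts (adjusted p = 0.0514), its 8 mutant values all being above the 4 controls. Vtn, which encodes vitronectin, fell by 0.88 in TrbE10 hearts (SE 0.15, adjusted p = 0.0180) and differed by -0.65 in TrbE14 hearts (adjusted p = 0.0964). Notch3, a receptor of arterial smooth muscle, differed by 0.35 and 0.44 without overlap with the controls (adjusted p = 0.0979 and 0.0758). The pericyte marker Rgs5 differed by -0.02 and 0.14.

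Genes of myofibroblasts and activated fibroblasts included genes that passed the test. Of 15 genes, 12 were measured. A higher mean was found for 10 in TrbE10 and 11 in TrbE14 hearts, with medians of 0.52 and 0.55. In each mutant 2 were called higher, beside 1.26% of all genes in TrbE10 and 0.538% in TrbE14 hearts. In each, 1 was called lower, beside 0.649% and 0.128% of all genes. Meox1, a transcription factor gene of activated fibroblasts, rose by 1.11 in TrbE10 (SE 0.18, adjusted p = 0.0144) and by 1.02 in TrbE14 hearts (SE 0.18, adjusted p = 0.0342). Itgav, the integrin subunit that takes part in activating latent TGF-beta, rose by 0.78 in TrbE10 hearts (adjusted p = 0.0357), whereas its TrbE14 difference was 0.69 (adjusted p = 0.0880). With normexp these were 0.50 and 0.36. Fbn1, the gene of fibrillin, rose by 0.67 in TrbE14 hearts (adjusted p = 0.0147) and differed by 0.29 after early deletion (adjusted p = 0.194). Fap, a surface protease gene of activated fibroblasts, moved the other way and fell by 0.81 in TrbE10 (SE 0.12, adjusted p = 0.00673) and by 0.75 in TrbE14 hearts (SE 0.12, adjusted p = 0.0162). Comp, a matrix protein gene, had the largest differences of the list, 2.14 and 1.98 (adjusted p = 0.0539 and 0.113), without overlap with the controls. Ltbp2, the gene of a latent TGF-beta binding protein, differed by 1.29 and 1.10, also without overlap (adjusted p = 0.0885 and 0.214). Postn, the gene of periostin, had log2 signals of 6.66, 6.77, 5.55 and 6.65 in control, 7.22, 6.78, 8.22 and 7.66 in TrbE10 and 8.16, 7.10, 7.31 and 7.29 in TrbE14 hearts. All mutant Postn values exceeded the controls (1.06 in each mutant, adjusted p = 0.172 and 0.251), with differences of 0.64 and 0.72 under normexp.

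**Figure D5:**
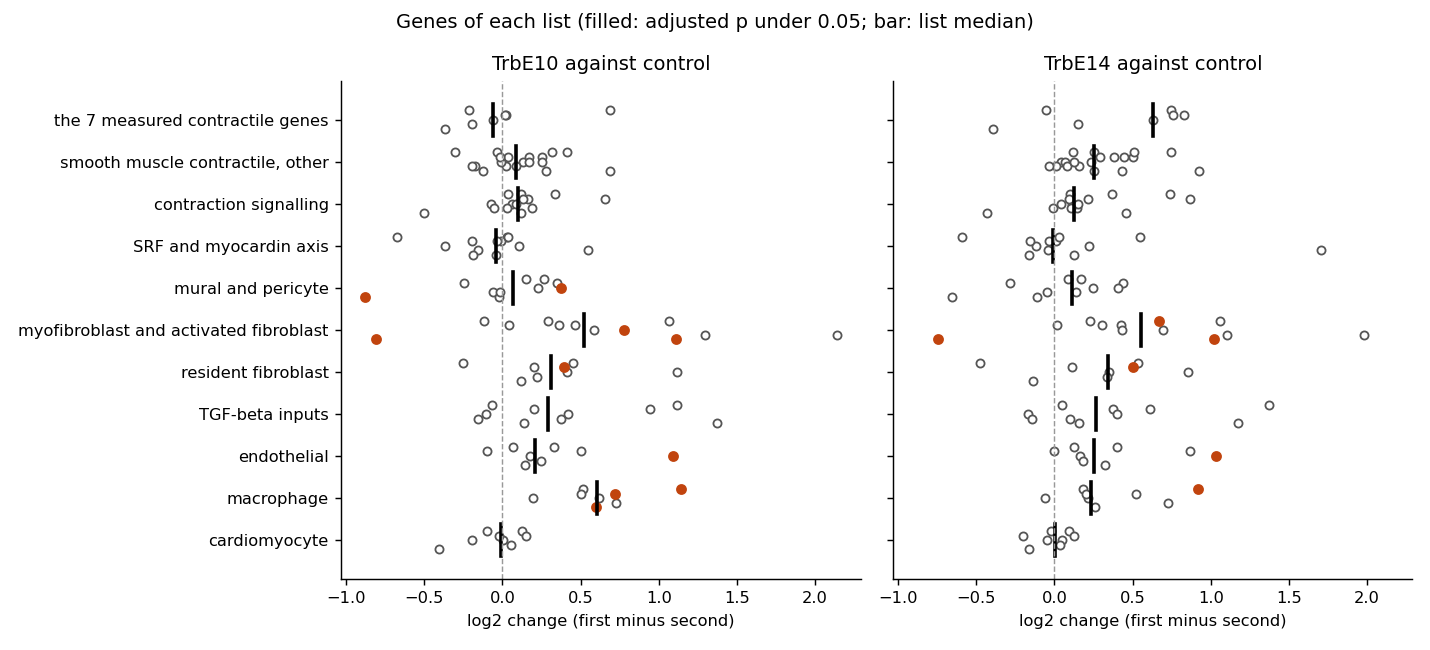
log2 change (x axis) of every measured gene of the gene lists (y axis) in TrbE10 and in TrbE14 hearts against the same 4 controls. Filled points have an adjusted p under 0.05 and bars give the list medians. The 7 contractile genes have medians of -0.06 and 0.63 with no filled point, and the activated fibroblast list has medians of 0.52 and 0.55 with 3 filled points in each panel.

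Resident fibroblast genes were measured for 8 of 8, with medians of 0.31 and 0.34. Of these, 7 had a higher mean in TrbE10 and 6 in TrbE14 hearts. Col15a1 differed by -0.25 and -0.47 and Lum by 0.12 and -0.14 (adjusted p from 0.335 to 0.832 by limma). Dcn, the gene of decorin, rose by 0.39 in TrbE10 (SE 0.08, adjusted p = 0.0345) and by 0.51 in TrbE14 hearts (SE 0.08, adjusted p = 0.0162). Tcf21, a transcription factor gene of resident fibroblasts, differed by 1.11 and 0.86 without overlap with the controls (adjusted p = 0.0547 and 0.193). Dpt and Gsn did not overlap the controls in TrbE14 hearts, with differences of 0.35 and 0.34 (adjusted p = 0.316 and 0.226). Of 10 genes of the TGF-beta pathway, a known inducer of Acta2 in fibroblasts, 7 had a higher mean in TrbE10 and 8 in TrbE14 hearts (medians of 0.29 and 0.27) and 0 were called. Tgfb3 differed by 0.42 and 0.40 (adjusted p = 0.150 and 0.249) and Tgfb2 by 0.95 and 0.61 (adjusted p = 0.0827 and 0.316). The receptor gene Tgfbr1 differed by 0.38 and 0.10 (adjusted p = 0.162 and 0.730). In the same order, Tgfb1 differed by -0.06 and 0.05, Smad2 by -0.10 and -0.17 and Smad3 by -0.16 and -0.14. Smad7 (1.37 and 1.17) and Ctgf (1.12 and 1.37) had larger differences but overlapped the controls. The 8 endothelial genes had medians of 0.21 and 0.25, with Vwf (von Willebrand factor) called higher in both. Vwf rose by 1.09 and 1.03 (adjusted p = 0.0217 and 0.0459), but with the mean of all its probes the TrbE10 difference was 0.61 (adjusted p = 0.245). Cldn5, Cdh5 and Pecam1, genes of endothelial junctions, differed by 0.87, 0.40 and 0.33 in TrbE14 hearts without overlap with the controls (adjusted p from 0.121 to 0.290). The 8 macrophage genes had medians of 0.61 and 0.24, with 3 and 1 called higher, beside 1.26% and 0.538% of all genes. Csf1r, the receptor gene for a macrophage growth factor, rose by 1.14 and 0.92 (adjusted p = 0.000111 and 0.000608), and C1qa and Cd68 rose by 0.72 and 0.60 in TrbE10 hearts (adjusted p = 0.0267 and 0.0241). The 8 cardiomyocyte genes, which should dominate this tissue, had medians of -0.01 and 0.01 with 0 called. Among them, Ryr2 and Ttn lay below the controls without overlap in TrbE10 hearts (-0.41 and -0.20, adjusted p = 0.0957 and 0.247) and Myh6 in TrbE14 hearts (-0.20, adjusted p = 0.347). Of 8 skeletal muscle genes, 3 passed the filter. The part of these cell types in the values of the contractile genes was not tested, and the differences of both mutants rest on the same 4 control hearts.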

How the data were processed

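The deposited scanner files of 12 one-colour Agilent arrays (62976 spots each, Agilent Feature Extraction 10.5 per the file headers) give a processed signal for each spot, an intensity from which the software had subtracted background. A second deposited table holds the authors' log2 values, quantile normalized and filtered on background, and was used as an alternative. The number of arrays limits the precision.

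In R 4.3.3, processed signals were put on the log2 scale and quantile normalized, as the study's methods state. Outlier spots were set to missing and the spots of a probe averaged. Kept were probes that stood well above background on 75% (3 of 4) or more of a group's arrays. limma 3.58.1 fitted 1 mean per group over all 12 arrays, Benjamini-Hochberg adjustment ran over 24593 probes within each comparison, and a gene was called at an adjusted p under 0.05. Each gene was given by its brightest kept probe. Exact permutation tests were two-sided over 70 orders of 8 arrays. The fits were tested on simulated data, and matplotlib drew the figures.

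The 8 genes and the gene lists were chosen with earlier results of these data known, from general knowledge of such markers. Named genes were these 8, Nkx2-5, list genes called in any comparison, up to 3 further genes per list with the largest change in a mutant whose 4 arrays did not overlap the controls, and the 5 genes most like the contractile genes by each of 2 measures, leaving out features without a gene symbol. Some further list genes are named outside this rule. Lists of cells other than mural cells and fibroblasts are given mainly by counts.

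The alternatives were normexp background correction (offset 50), scaling to the 75th percentile, a filter on 9 of 12 arrays, an unfiltered fit, the authors' values (19800 probes), fits on the compared groups alone, a replicate block, Y-linked signal as a covariate, the mean of all probes of a gene, 2-class SAM with a false discovery rate of 5%, and leaving out each array in turn. Applying them to list genes and Nkx2-5 was chosen after seeing the data. Replicate numbers match columns on the slides, and nothing says that they pair mice.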

Additional observations from a re-analysis of the deposited data

How the results depend on the processing

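With each setting and each array left out, the number of contractile genes called was 0 in all 3 comparisons. The median log2 change of the 7 genes moved by less than its spread between arrays (SD 0.28), ranging over arrays left out from -0.23 to 0.08 in TrbE10 against control, from 0.46 to 0.77 in TrbE14 against control and from -0.40 to -0.28 between the mutants. Of 448 values of single contractile genes, 424 kept their sign and their side of the threshold and 24 changed sign, all of them with main values near 0. Scaling to the 75th percentile gave -0.0101 for Cnn1 and -0.0824 for Tagln in TrbE10 against control, and the Myocd difference between the mutants was -0.0640 with normexp and -0.00025 with Y-linked signal as a covariate. With single arrays left out, TrbE10 against control ranged from -0.11 to 0.17 for Cnn1, from -0.14 to 0.14 for Tagln and from -0.23 to 0.0803 for Myh11, TrbE14 against control from -0.18 to 0.0455 for Smtn, and TrbE10 against TrbE14 from -0.31 to 0.19 for Acta2 and from -0.10 to 0.18 for Myocd. Among list genes, TrbE10 against control also changed sign for Flna (-0.0678 with 75th percentile scaling, -0.0447 to 0.0803 over arrays left out), Tpm2 (0.00813 with normexp, 0.00881 with the mean of all probes, -0.12 to 0.0947 over arrays left out), Csrp2 (-0.15 to 0.00378 over arrays left out) and Myh6 (-0.16 with the mean of all probes).

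Some called list genes held under every alternative and others did not. In TrbE10 against control, Csf1r and Fap were called in all 9 other settings and with each of 12 arrays left out, Pdgfrb in 5 of 9 and 1 of 12, Dcn in 6 of 9 and 3 of 12, Itgav in 7 of 9 and 3 of 12, and Nkx2-5 in 7 of 9 and 2 of 12. In TrbE14 against control, Dcn was called in 7 of 9 and 8 of 12, Meox1 in 7 of 9 and 4 of 12, and Vwf in 4 of 9 and 2 of 12. The replicate block called 0 contractile genes in each comparison, and their medians under it were -0.06, 0.63 and -0.35. Deviations of arrays with the same number correlated over 0.1 in 0 of 8 pairs of a mutant and a control (-0.24 to 0.08) and in 3 of 4 pairs of the 2 mutants (-0.01 to 0.48). Since this was not so in every pair, and 6 of 12 arrays correlated best with their own number, the numbers were not taken as pairs. The 3 mutant pairs over 0.1 were also alike in Y-linked signal, and the remaining mutant pair was not. The part of Y-linked signal in these correlations was not tested. A fit of the 2 mutants alone with the replicate block, chosen after seeing the data, also called 0 contractile genes. The SE of the Acta2 difference of -0.06 was 0.08 there (adjusted p = 0.876 by limma) in place of 0.36. As nothing says that the numbers pair mice, the smaller SE was not used, and the wider interval of the main fit stands. Lmod1 could not be assessed because its probe was below background on all arrays.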

Other observations

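Genes that the ventricle expresses before birth or under stress, and genes of atrial and skeletal muscle, were followed as further lists of striated muscle. Of 6 fetal and stress genes, all measured, 6 had a higher mean in TrbE10 and 5 in TrbE14 hearts, with medians of 0.80 and 0.77. In each mutant 2 were called higher, beside 1.26% of all genes in TrbE10 and 0.538% in TrbE14 hearts. Myh7, the slow myosin heavy chain gene, rose by 3.05 after early deletion (SE 0.36, adjusted p = 0.00216) and by 2.46 after late deletion (SE 0.36, adjusted p = 0.0103). Ankrd1, a stress-responsive muscle protein gene, rose by 0.99 and 0.87 (SE 0.13 for each, adjusted p = 0.00357 and 0.0119). Xirp2, which encodes an actin-binding protein of muscle, did not overlap the controls in either mutant, with differences of 0.60 and 0.33 (adjusted p = 0.0546 and 0.337). Nppa, the atrial natriuretic peptide gene, stood on this list and the atrial list, with differences of 2.08 and 1.65 (adjusted p = 0.0856 and 0.241). Acta1, the skeletal alpha-actin gene and a relative of Acta2, was taken for that kinship, not by the rule, and differed by 0.59 (adjusted p = 0.568) and 0.66 (adjusted p = 0.540), with values between 11.99 and 13.78 in control hearts. Of 4 atrial genes, Sln, the gene of sarcolipin, rose by 3.80 in TrbE10 hearts (adjusted p = 0.0176), with a TrbE14 difference of 3.33 (adjusted p = 0.0514). Of the 3 skeletal muscle genes above background, the troponin gene Tnni2 fell by 1.38 in TrbE10 hearts (adjusted p = 0.0193), with a TrbE14 difference of -0.89 (adjusted p = 0.153). The Myh7 and Ankrd1 calls held in both mutants under each of 9 other settings and with each of the 12 arrays left out. In TrbE10 hearts the Sln call held under 7 of 9 settings and with 8 of 12 arrays left out in turn, and the Tnni2 call under 8 of 9 and with 9 of 12.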
